A study of Mus musculus with 14 samples.

Results

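The expression of 10 genes of the bone morphogenetic protein (BMP) and transforming growth factor beta (TGF-beta) pathways was analyzed in healthy mouse intestine, intestinal adenomas and a colon carcinoma cell line. The genes were the ligands Bmp2, Bmp4, Bmp7 and Tgfb1, the receptor Tgfbr2, the secreted BMP antagonist Grem1, the inhibitory Smads Smad6 and Smad7, and the BMP target genes Id1 and Id3. They were found by their names on a one-color array and were measured by 12 of its 55681 probes, which carry 36161 gene names. Both pathways signal through a ligand that brings together serine/threonine kinase receptors, which then phosphorylate Smad proteins that enter the nucleus with Smad4. BMP ligands act on Smad1, Smad5 and Smad9, and TGF-beta and activins on Smad2 and Smad3. In the intestine BMP activity is highest towards the villus and is held low around the crypt base by antagonists secreted from the mesenchyme, and TGF-beta restrains the growth of epithelial cells.

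The arrays covered 14 samples of whole tissue or cultured cells. Small intestine (3 arrays) and colon (3 arrays) are labelled as C57BL/6J tissue. Macroscopic adenomas (3 arrays) and the tissue adjacent to adenomas (2 arrays) came from Apc Min/+ mice, which carry a germline truncating mutation of the tumor suppressor Apc in all their cells and develop adenomas mainly in the small intestine. CT26 (3 arrays) is a colon carcinoma cell line, obtained from ATCC and here grown in culture. The sample list of the study places all adenoma and adjacent pieces on the arrays in 1 mouse, so that their spread is that between pieces of tissue and not between animals. The same list places the small intestine samples in different mice and gives BALB/c as the strain of CT26, which therefore differs from colon in strain as well. It also enters 1 colon sample under an Apc Min/+ mouse, although the labels give C57BL/6J for it. Nothing states that the CT26 arrays came from separate cultures, and p-values measure only the spread between these samples. All values below are scaled log2 intensities, that is, the log2 of the background-subtracted signal minus the 75th percentile of its array. They compare samples for 1 probe, and not genes with each other. A gene was called when its log2 fold change was at least 1.2 in size with an adjusted p of at most 0.01.

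Colon replicate 3 stood apart from its group. Over the 20832 probes well above background on all 14 arrays, it correlated with small intestine at 0.9506 to 0.9687. With colon replicates 1 and 2 it correlated at 0.9383 and 0.9344. Colon replicates 1 and 2 correlated with each other at 0.9849. Its mean level of 7 enterocyte genes of the small intestine was 6.12, against -2.48 and -2.23 on the other colon arrays, and that of 5 colonocyte genes was -0.9 against 6.02 and 5.83. It also had the lowest share of probes well above background, 46.8%, whereas the highest share was 58.2%. Where leaving out this array changed a call of the 10 genes or a count over the wider lists, the value without it is also given. In bulk tissue, fewer cells of a type and less RNA per cell cannot be told apart.

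**Figure D1:**
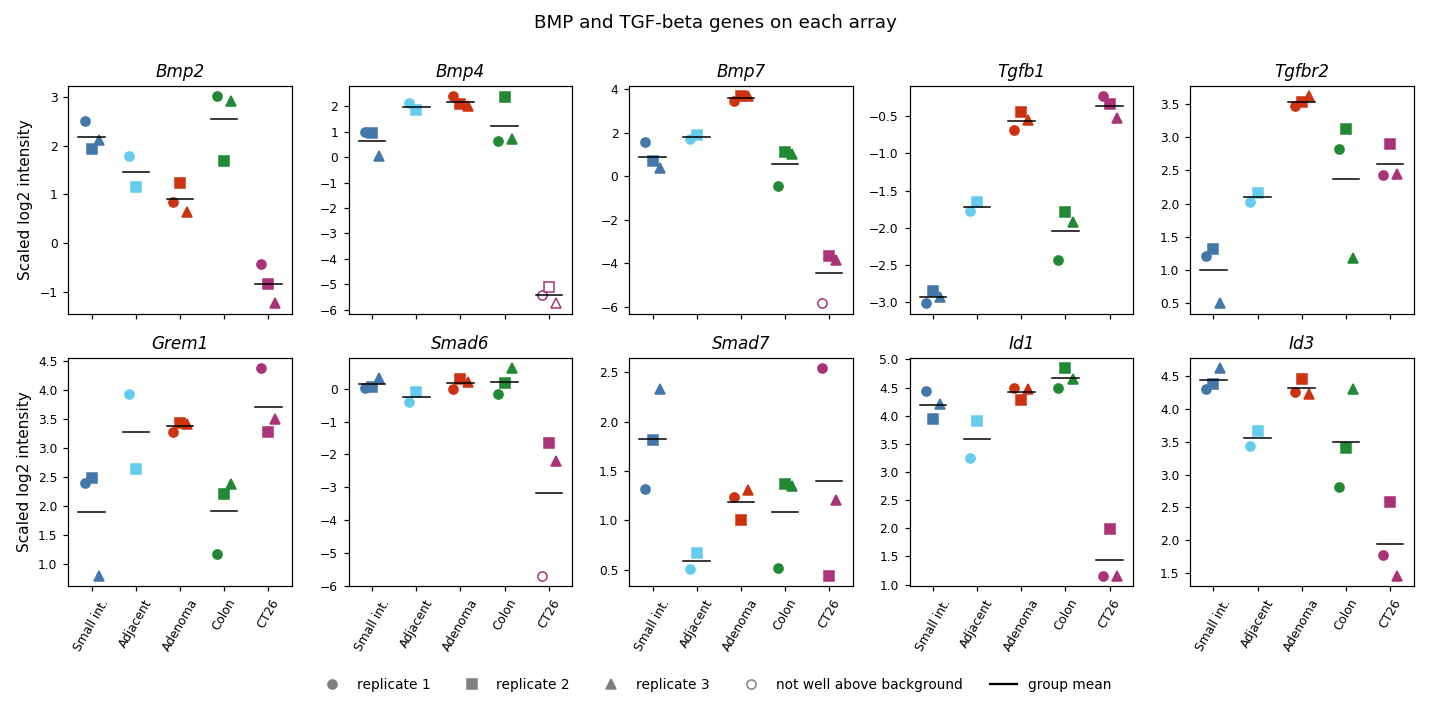
Scaled log2 intensity (y axis, its range differing between genes) of the 10 genes on each of the 14 arrays, by group (x axis). Each symbol is 1 array, its shape gives the replicate, open symbols were not well above background and black lines are group means. Tgfb1, Tgfbr2 and Bmp7 were higher on all 3 adenoma arrays than on all 3 small intestine arrays, and Bmp4 was not well above background on any CT26 array.

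In adenomas, compared with healthy small intestine, the ligand gene Tgfb1, the receptor gene Tgfbr2 and 2 BMP ligands were overexpressed. Tgfb1 rose 5.19-fold, Tgfbr2 5.78-fold, Bmp7 6.62-fold and Bmp4 2.84-fold, whereas Bmp2 fell to a level 2.43-fold lower. The BMP targets Id1 and Id3 and the inhibitory Smads did not pass the test. Thus 4 of the 10 genes were called higher, where 11.3% of all genes tested were, and 1 was called lower, where 11.1% were. The median log2 fold change of the 10 genes was 0.85, and that of all genes tested was -0.15.

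Tgfb1 encodes the TGF-beta 1 ligand, which is secreted in a latent form. Its small intestine arrays gave -3.02, -2.85 and -2.93, its adjacent arrays -1.78 and -1.66, and its adenoma arrays -0.68, -0.44 and -0.55. The groups did not overlap, and the 3 tissues formed 3 separate levels. The log2 fold change between adenomas and small intestine was 2.38 (SE 0.154, adjusted p = 0.00011), and it was 2.36 and 2.4 within slide 1 and slide 2, which both held arrays of every group. Tgfbr2, the type II receptor that binds the ligand, gave 1.21, 1.31 and 0.49 in small intestine, 2.03 and 2.16 in adjacent tissue and 3.47, 3.53 and 3.62 in adenomas. Its adenoma arrays lay within a narrow range, above every other array of the series. Its log2 fold change was 2.53 (SE 0.242, adjusted p = 0.000347). The probe used lies at chr9:115997155-115997214 in mm9, and a second probe of Tgfbr2, at chr9:115999496-115999555, gave 2.17 (SE 0.2, adjusted p = 0.000305), so that both probes were called.

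Bmp7, a BMP ligand, gave 1.58, 0.7 and 0.37 in small intestine, 1.7 and 1.89 in adjacent tissue and 3.48, 3.68 and 3.68 in adenomas. The adenomas were above both other tissues, and the adjacent arrays lay just above the highest small intestine array. The log2 fold change between adenomas and small intestine was 2.73 (SE 0.31, adjusted p = 0.00067). Bmp4, a BMP ligand made mainly by mesenchymal cells of the gut, gave 0.97, 0.93 and 0.05 in small intestine, and 2.39, 2.1 and 1.99 in adenomas (log2 fold change 1.51, SE 0.281, adjusted p = 0.00469). Its adjacent arrays, at 2.12 and 1.84, overlapped the adenomas. Bmp2, a BMP ligand expressed in differentiated epithelium, went the other way, with 2.51, 1.92 and 2.12 in small intestine and 0.84, 1.23 and 0.64 in adenomas (log2 fold change -1.28, SE 0.232, adjusted p = 0.0042). Within slide 1 and slide 2 the difference was 2.69 and 2.22 for Tgfbr2, 2.6 and 2.98 for Bmp7, 1.68 and 1.17 for Bmp4, and -1.58 and -0.69 for Bmp2. With the slide as a block, Bmp4 (adjusted p = 0.0107) and Bmp2 (0.0104) were no longer called. Bmp2 also lost its call in the authors' normalized table (-1.13) and with quantile normalization (-1.17), where its size was below the fold threshold. Tgfb1, Tgfbr2 and Bmp7 remained called whichever array was left out. Bmp4 was not called without small intestine replicate 2 (adjusted p = 0.0105) or without adenoma replicate 1, 2 or 3 (0.0216, 0.0199 and 0.0153), and Bmp2 was not called without small intestine replicate 1 (log2 fold change -1.12) or 3 (adjusted p = 0.0109) or adenoma replicate 1 or 3 (0.0196 and 0.0201).

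Grem1 encodes Gremlin 1, which binds BMP ligands and keeps them from their receptors. It gave 2.39, 2.48 and 0.8 in small intestine and 3.28, 3.43 and 3.41 in adenomas, with no overlap. Small intestine replicate 3 was far below the other small intestine arrays, and the log2 fold change of 1.48 (SE 0.436) was not called (adjusted p = 0.0261). Id1 and Id3 encode inhibitors of helix-loop-helix transcription factors and are induced by BMP signaling. Id1 had a log2 fold change of 0.22 (SE 0.184, adjusted p = 0.337), and Id3 one of -0.12 (SE 0.167, adjusted p = 0.559), and their arrays overlapped between adenomas and small intestine. With the authors' table and with quantile normalization the sign for Id3 turned, to 0.24 and 0.21. Smad6 and Smad7, which block the receptors or Smad activation, had 0.03 (SE 0.175, adjusted p = 0.885) and -0.64 (SE 0.272, adjusted p = 0.0856).

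Markers of the cell types in the tissue moved as well. The fibroblast list (6 genes) had mean levels of 3.29 to 3.37 in adenomas, 1.98 to 2.66 in adjacent tissue and 0.21 to 2.31 in small intestine. The endothelium list (7 genes) had -0.3 to 0.02, -0.58 to -0.31 and -2.31 to -1.7. The smooth muscle list (6 genes) was lower in adenomas, at 3.32 to 3.62, than in small intestine, at 3.96 to 5.85, and the epithelium list (8 genes) had 7.15 to 7.38 and 7.79 to 8.06. The small intestine array with the lowest Grem1, replicate 3, also had the lowest fibroblast, endothelium and smooth muscle levels of its group. The part of these cell types in the differences above was not tested.

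**Figure D2:**
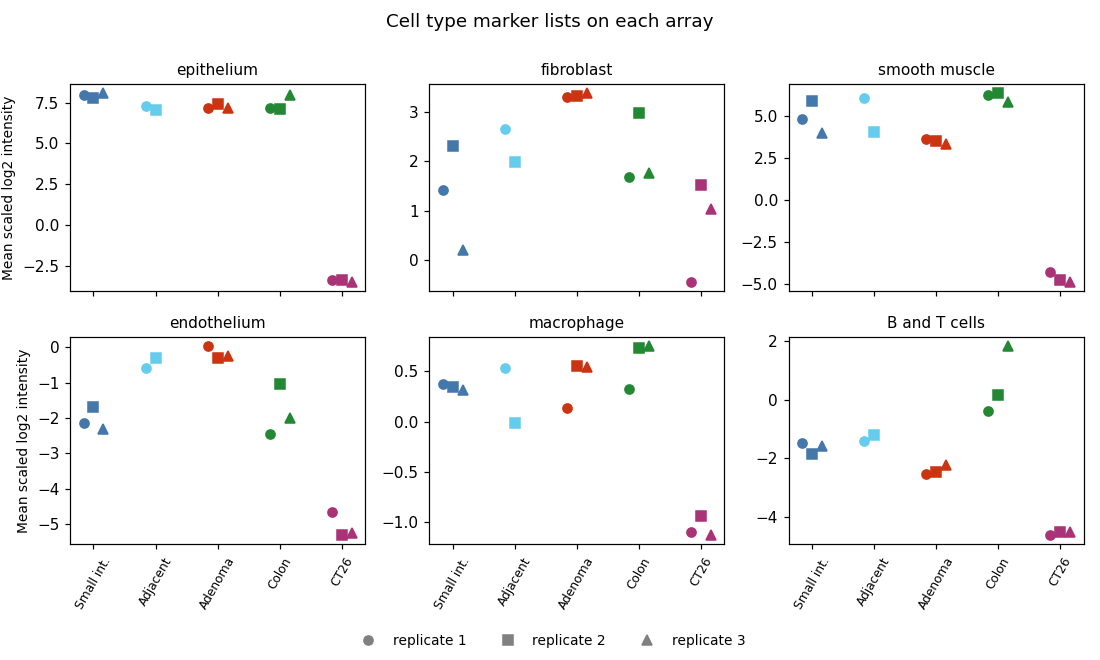
Mean scaled log2 intensity (y axis, its range differing between lists) of 6 lists of cell type markers on each array, by group (x axis). Each symbol is 1 array and its shape gives the replicate. The fibroblast list was at 3.29 to 3.37 in adenomas and no higher than 2.31 in small intestine, and CT26 had the lowest epithelium, smooth muscle and endothelium levels.

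Promoter sequence was looked up to show what lies upstream of the ligand and receptor that rose together and of genes known to respond to BMP. The RefSeq table of GRCm38.p6 held promoters of 6 of the 10 genes, Bmp4, Grem1, Id3, Smad6, Tgfb1 and Tgfbr2. The 250 bases before the annotated start were searched on both strands for the Smad box CAGAC (on the other strand GTCTG), the GC-rich Smad motif GGCGCC, the TCF motif CTTTGAT (on the other strand ATCAAAG) and the AP-1 motif TGANTCA. Of the 32851 promoters in the table, 42.2% held the Smad box, 9.59% the GC-rich motif, 3.21% the TCF motif and 6.75% the AP-1 motif in the same window. The Smad box was found 2 times in Id3 and 1 time each in Grem1 and Tgfbr2, and Grem1 also held the GC-rich motif. No match overlapped another. The windows of Tgfb1, Bmp4 and Smad6 held none of these letters. Matches are in capitals, and each sequence runs 5′ to 3′ on the strand of its gene and ends at the base before the start.
Tgfb1, chr7:25686752-25687001 (+): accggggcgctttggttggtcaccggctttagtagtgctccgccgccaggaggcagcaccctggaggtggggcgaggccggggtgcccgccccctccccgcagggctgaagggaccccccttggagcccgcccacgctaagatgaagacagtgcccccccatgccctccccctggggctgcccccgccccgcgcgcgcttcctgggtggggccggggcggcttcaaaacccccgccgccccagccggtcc
Tgfbr2, chr9:116175364-116175613 (-): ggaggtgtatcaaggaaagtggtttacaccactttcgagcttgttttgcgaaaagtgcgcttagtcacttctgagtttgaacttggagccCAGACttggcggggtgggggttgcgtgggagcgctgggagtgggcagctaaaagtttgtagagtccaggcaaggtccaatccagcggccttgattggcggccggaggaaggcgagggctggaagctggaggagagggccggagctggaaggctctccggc
Grem1, chr2:113758649-113758898 (-): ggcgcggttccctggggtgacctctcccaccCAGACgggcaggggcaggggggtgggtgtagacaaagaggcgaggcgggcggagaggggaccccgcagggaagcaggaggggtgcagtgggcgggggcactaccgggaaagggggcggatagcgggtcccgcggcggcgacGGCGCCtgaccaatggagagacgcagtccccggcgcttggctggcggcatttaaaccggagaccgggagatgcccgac
Id3, chr4:136143572-136143821 (+): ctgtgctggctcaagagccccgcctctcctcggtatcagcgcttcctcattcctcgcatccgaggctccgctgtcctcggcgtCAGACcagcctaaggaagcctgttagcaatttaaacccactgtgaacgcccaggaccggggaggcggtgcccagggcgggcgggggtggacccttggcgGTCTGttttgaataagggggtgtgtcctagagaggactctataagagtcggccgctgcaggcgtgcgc
In Id3 the boxes begin 167 and 68 bases before the start, in Tgfbr2 the box begins 160 bases before it, and in Grem1 the Smad box and the GC-rich motif begin 219 and 78 bases before it. A match describes the letters of the window and is not a binding site.

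Adenomas were then compared with the adjacent tissue, which shares the Apc Min/+ genotype and the mouse. Bmp7 and Tgfbr2 were again overexpressed in adenomas, 3.52-fold and 2.71-fold, and none of the 10 genes was called lower. These were 2 of 10 genes, where 2.4% of all genes tested were called higher. Bmp7 had a log2 fold change of 1.82 (SE 0.161, adjusted p = 0.00432), and Tgfbr2 one of 1.44 (SE 0.15, adjusted p = 0.00576). The second Tgfbr2 probe gave 1.12 (SE 0.212, adjusted p = 0.0219) and was not called. Tgfb1 gave 1.16 (SE 0.156, adjusted p = 0.00932), which was below the fold threshold. Bmp4 (0.18, adjusted p = 0.527), Grem1 (0.09, adjusted p = 0.873) and Bmp2 (-0.56, adjusted p = 0.185) overlapped between the tissues. Id1, Id3, Smad6 and Smad7 were higher on every adenoma array than on both adjacent arrays, by 0.84, 0.77, 0.41 and 0.59, and none was called (adjusted p = 0.0561, 0.0308, 0.164 and 0.0612). With 3 arrays against 2, groups that do not overlap were common, at 7 of the 10 genes and 57.1% of all genes tested. Within slide 1 and slide 2 the difference was 1.87 and 1.79 for Bmp7, and 1.52 and 1.36 for Tgfbr2, but with the slide as a block neither was called (adjusted p = 0.0114 and 0.0153). Both calls were also lost without adjacent replicate 1 (adjusted p = 0.0129 and 0.0172), adenoma replicate 1 (0.0186 and 0.0245), replicate 2 (0.0363 and 0.0416) or replicate 3 (0.0217 and 0.0291), while their fold changes stayed near the values given.

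Adjacent tissue and healthy small intestine were compared to ask whether the tissue beside these adenomas already differs. Since the sample list places both adjacent pieces in 1 mouse, the Apc Min/+ genotype and the animal cannot be told apart. No gene of the 10 was called, and of all genes 0.00924% were, with limma, although 6630 genes had an unadjusted p under 0.05. The arrays of the groups did not overlap for any of the 10 genes, which was the case for 52.9% of all genes tested with 2 arrays against 3. Tgfb1 had a log2 fold change of 1.21 (SE 0.199, adjusted p = 0.0509), Bmp4 of 1.33 (SE 0.343, adjusted p = 0.08) and Tgfbr2 of 1.09 (SE 0.306, adjusted p = 0.0896). Smad7 had -1.23 (SE 0.333, adjusted p = 0.0847) and Id3 -0.89 (SE 0.219, adjusted p = 0.0758). For Grem1, adjacent replicate 1 gave 3.93 and replicate 2 gave 2.63, and the smooth muscle list was also higher on the former, at 6.08 against 4.04, and its part was not tested. The mean of adjacent tissue lay between small intestine and adenomas for 6 genes, namely Bmp2, Bmp4, Bmp7, Grem1, Tgfb1 and Tgfbr2. For Id1, Id3, Smad6 and Smad7 it lay below both. This order of means is a description, since the comparisons share arrays.

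Colon and small intestine were compared as the healthy parts of the gut. None of the 10 genes was called, and 0.00969% of all genes were, with 4923 genes at an unadjusted p under 0.05. Without colon replicate 3, the share of all genes called was 7.23%, and again none of the 10 was called. Tgfbr2 then came nearest, with a log2 fold change of 1.97 (SE 0.322, adjusted p = 0.0108). It gave 2.82 and 3.13 on the first 2 colon arrays and 1.18 on replicate 3, which was inside the small intestine range. Id3 gave 2.81, 3.4 and 4.3 on the colon arrays, and without replicate 3 its log2 fold change was -1.34 (SE 0.271, adjusted p = 0.02).

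**Figure D3:**
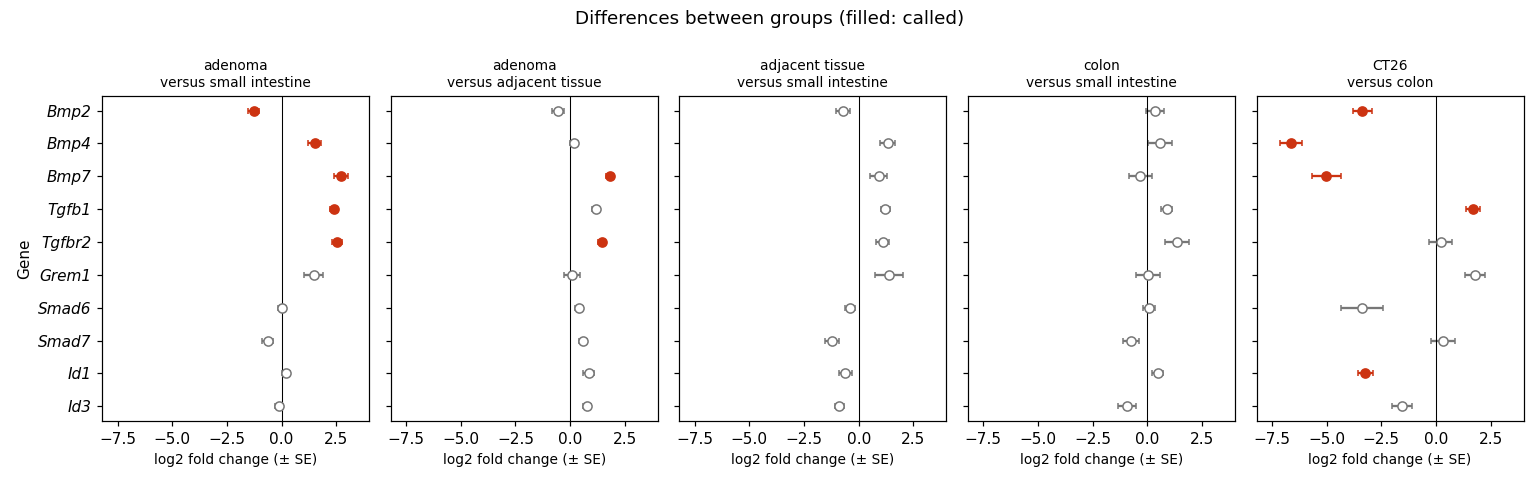
Log2 fold change with its standard error (x axis) of the 10 genes (y axis) in the 5 comparisons of groups. Filled red symbols are called and open grey symbols are not. Of the 10 genes, 5 were called in the first panel, 2 in the second, 0 in the next 2 and 5 in the last.

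In CT26 cells, compared with colon, the BMP ligands and Id1 were low, and Tgfb1 was high. Bmp2, Bmp4, Bmp7 and Id1 were called lower, which made 4 of 10 genes where 16.2% of all genes were. Tgfb1 was the single gene called higher, where 21% of all genes were. The median log2 fold change of the 10 genes was -2.4, and that of all genes tested was 0.32. Without colon replicate 3 the same 5 genes were called and Grem1 was added, with 39.5% of all genes called in either direction.

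Bmp4 gave 0.64, 2.35 and 0.71 in colon and -5.41, -5.09 and -5.75 in CT26, where it was not well above background on any array. It was at least 72.6-fold lower in CT26 (adjusted p = 3.54e-05), a bound set against the lowest signals well above background. This probe lies at chr14:47003391-47003450 in mm9. A second Bmp4 probe, at chr14:47003198-47003257, was not well above background on any of the 14 arrays and gives no measurement. Bmp7 gave -0.44, 1.13 and 1.01 in colon and -5.85, -3.65 and -3.83 in CT26, with 2 of 3 CT26 arrays well above background (log2 fold change -5.01, SE 0.679, adjusted p = 0.000675). Bmp2 gave 3.01, 1.69 and 2.92 in colon and -0.42, -0.84 and -1.24 in CT26 (log2 fold change -3.38, SE 0.436, adjusted p = 0.000528). No CT26 array reached the colon range for any of the 3 ligands, and the difference within slide 1 and slide 2 was -7.93 and -5.76 for Bmp4, -5.97 and -3.93 for Bmp7, and -2.52 and -3.81 for Bmp2.

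Id1 gave 4.5, 4.84 and 4.66 in colon and 1.16, 1.99 and 1.16 in CT26, a 9.39-fold difference (log2 fold change -3.23, SE 0.332, adjusted p = 0.000172), with -3.68 and -2.59 within the slides. Id3 was lower on each CT26 array, at 1.77, 2.59 and 1.46, than on the colon arrays, and its log2 fold change of -1.56 (SE 0.473) was not called (adjusted p = 0.0258). Smad6 spread widely in CT26, with -5.69 on replicate 1, which was not well above background, and -1.66 and -2.2 on the others. Its log2 fold change of -3.39 (SE 0.967, adjusted p = 0.0202) was not called, and without CT26 replicate 1 it was -2.14 and called (adjusted p = 0.00576). Smad7 gave 2.54, 0.44 and 1.21 in CT26, which spanned the colon arrays (log2 fold change 0.32, adjusted p = 0.664).

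Tgfb1 gave -2.43, -1.79 and -1.92 in colon and -0.23, -0.33 and -0.52 in CT26, near the adenoma arrays (log2 fold change 1.69, SE 0.298, adjusted p = 0.00243), with 1.41 and 1.85 within the slides. The call was lost without colon replicate 1 (adjusted p = 0.0119) and without CT26 replicate 2 or 3 (0.0123 and 0.0108). Grem1 gave 1.18, 2.2 and 2.38 in colon and 4.37, 3.27 and 3.5 in CT26. Its log2 fold change was 1.79 (SE 0.444, adjusted p = 0.0112), and without colon replicate 3 it was 2.02 (SE 0.458, adjusted p = 0.00807) and called. Tgfbr2 had 0.22 (SE 0.519, adjusted p = 0.75), and the sign turned to -0.38 without colon replicate 3, to -0.27 in the authors' table and to -0.25 with quantile normalization. Its second probe gave -0.43 (SE 0.322, adjusted p = 0.296).

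CT26 is a line and colon a tissue, and markers moved with all these differences. The epithelium list was at -3.5 to -3.38 in CT26 and at 7.1 to 7.97 in colon. Epcam, Cdh1, Krt19 and Vil1, which define intestinal epithelium, were not well above background on any CT26 array, whereas Krt18 was at 5.24. The smooth muscle and endothelium lists were at -4.85 to -4.24 and -5.29 to -4.65 in CT26, against 5.81 to 6.33 and -2.45 to -1.03 in colon. The fibroblast list was at -0.43 to 1.53 in CT26, with Col1a2 at 7.97 and Lum not well above background on any array, and at 1.68 to 2.97 in colon. The part of these lists was not tested, and strain, culture and transformation cannot be told apart here.

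Whether the 2 tumor comparisons differed was tested directly, as the change in CT26 against colon minus the change in adenomas against small intestine. Bmp4 (-8.15, SE 0.618, adjusted p = 1.62e-06), Bmp7 (-7.73, SE 0.832, adjusted p = 2.56e-05), Id1 (-3.45, SE 0.369, adjusted p = 2.45e-05) and Bmp2 (-2.1, SE 0.519, adjusted p = 0.00691) were called lower, where 15.3% of all genes were. The size for Bmp4 is not measured, since Bmp4 was not well above background on any CT26 array. With the lowest signals well above background in place of its CT26 values the difference was -7.69, and with normexp background correction the fit gave -5.69. Bmp7 was not well above background on 1 of 3 CT26 arrays. Bmp4 and Bmp7 were called in opposite directions, higher in adenomas and lower in CT26, and Bmp2 was called lower in both, with the larger fall in CT26. Tgfb1 was called higher in both, and its difference of -0.69 (SE 0.308) was not called (adjusted p = 0.0905). Grem1 had 0.31 (SE 0.672, adjusted p = 0.735), and its sign turned to -0.33 in the authors' table and to -0.34 with quantile normalization. Tgfbr2 had -2.31 (SE 0.619) and was not called (adjusted p = 0.0104), while its second probe was called at -2.6 (SE 0.367, adjusted p = 0.000201). The call of Tgfbr2 depended on the setting. Without colon replicate 3 it was called at -2.91 (adjusted p = 0.000116), and it was also called in the authors' table (-2.91, adjusted p = 0.00373), with quantile normalization (-2.97, 0.00473), with normexp (-2.29, 0.00814), with all 5 groups in 1 fit (0.00696), with the replicate block (0.007) and with the filter on every array (0.00841). Bmp2 lost its call with the slide as a block (-1.98, adjusted p = 0.0109), with no filter on dim probes (0.0146), and without small intestine replicate 2 or 3, any adenoma replicate, colon replicate 1 or 3, or CT26 replicate 2 or 3 (0.0115 to 0.0211). The genes called lower without colon replicate 3 were thus Bmp4, Bmp7, Id1 and Tgfbr2.

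**Figure D4:**
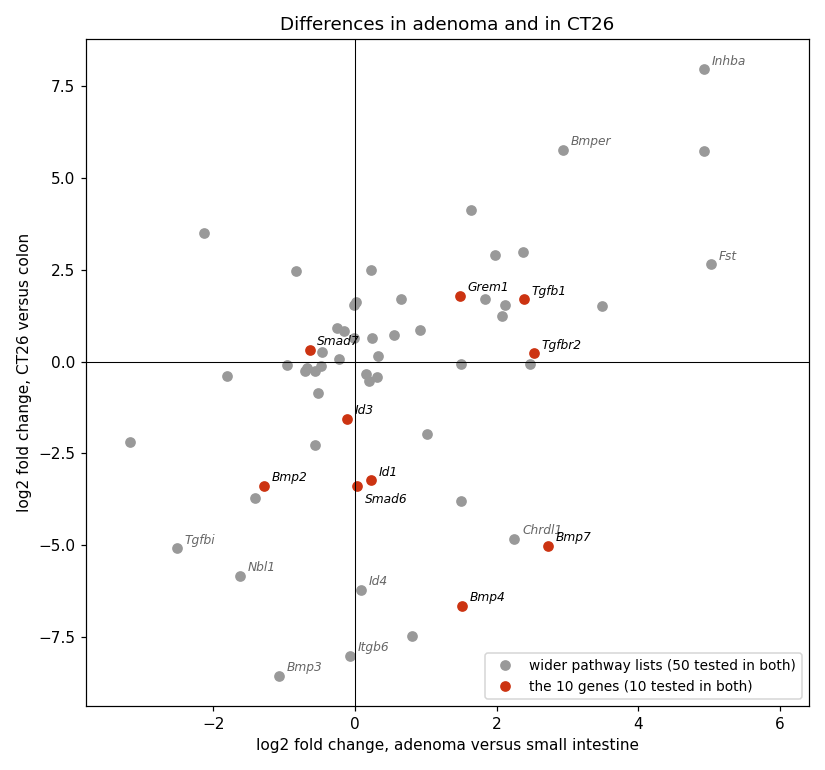
Log2 fold change between adenomas and small intestine (x axis) and between CT26 and colon (y axis) of the 10 genes (red) and of the 50 genes of the wider pathway lists tested in both (grey). Bmp4 and Bmp7 were higher in adenomas and lower in CT26, whereas Inhba and Fst were higher in both.

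The other genes of the pathways were read from 8 lists with 58 genes. Between adenomas and small intestine, 15 of the 55 genes tested were called higher and 5 lower, with a median log2 fold change of 0.22. These were 27.3% and 9.09%, against 11.3% and 11.1% of all genes tested. The activin genes Inhba and Inhbb, which encode subunits of TGF-beta family ligands, rose by a log2 fold change of 4.92 (SE 0.323) and 5.37 (SE 0.236). Inhba was at -4.22 to -3.32 in small intestine, at -2.3 and -1.89 in adjacent tissue and at 0.61 to 1.57 in adenomas, again with 3 separate levels. The secreted inhibitors Fst, which binds activins, and Chrdl2, which binds BMPs, also rose, Fst by 5.02 (SE 0.274) and Chrdl2 at least 39.8-fold. Chrdl2 was not well above background on any small intestine array. Thbs1, an activator of latent TGF-beta, rose by 3.49 (SE 0.298). The adjusted p of these 5 genes was 4.83e-05 to 0.000235.

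By list, 4 of 7 genes of latent TGF-beta storage and activation were called higher and none lower (median 1.63). The same held for 2 of 4 TGF-beta and activin ligands (median 2.97). These 2 were the activin genes Inhba and Inhbb, and no TGF-beta ligand of this list was called. Of 8 targets, 4 were called higher and 1 lower (median 0.82). The one that fell was Tgfbi, an extracellular matrix gene named for its induction by TGF-beta, at -2.51. Of 10 receptors tested, 1 was called in each direction, Eng, an endothelial co-receptor, at 2.47 and Acvr2a, an activin receptor, at -1.81 (median 0.11). The endothelium list moved the same way as Eng, as given above. With all arrays, none of the receptor and common Smads tested was called in any comparison of 2 groups. Smad9 was not tested between CT26 and colon in that case. Without colon replicate 3 it was tested and called lower in CT26, where no array showed it well above background. Of 5 BMP ligands, Bmp6 was called higher, at 2.44, and Bmp8a and Bmp8b lower, at -3.18 and -1.41 (median -1.07). Bmp6 was well above background on only 1 of 3 small intestine arrays, which limits the size of its rise. Of 10 secreted inhibitors, 2 were called higher and 1 lower (median 0.86), and of 5 membrane and intracellular inhibitors Tgif1 was called higher, at 1.83 (median -0.46). Without adenoma replicate 1, 2 or 3, the 20 calls in the 8 lists came to 11, 12 and 12. The share of all genes called in these fits is not given, so the drop does not single out the lists.

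Between adenomas and adjacent tissue, 5 genes of the lists were called, all higher, with a median of 0.14 over the 55 tested. These were 9.09%, against 2.4% of all genes tested. They included Inhba (3.24, SE 0.317), Fst (2.5, SE 0.181), Bmp8b (2.43, SE 0.164) and Thbs1 (1.91, SE 0.239), at adjusted p values of 0.00249 to 0.00798. Bmp8b was thus above adjacent tissue and below small intestine in adenomas. All 5 calls were lost without adenoma replicate 1, 2 or 3, and those of Bmp8b and Fst were kept without adjacent replicate 1. Here too the share of all genes called in these fits is not given. Adjacent tissue had no called gene of the lists when set against small intestine, and colon had none with all arrays. Without colon replicate 3, Tgfb2, Chrdl2, Thbs1 and Tgfbi were called between colon and small intestine, 4 of 55 genes, where 7.23% of all genes were, and they are named here after their values were seen.

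Between CT26 and colon, 12 of the 50 genes tested were called higher and 11 lower, with a median of 0.11. These were 24% and 22%, against 21% and 16.2% of all genes tested. With colon replicate 3 left out, 12 of 55 were called higher and 15 lower, that is 21.8% and 27.3%, against 20.1% and 19.4% of all genes. Bmp3, a BMP family ligand, was at least 91.6-fold lower in CT26. Itgb6, an integrin subunit that activates latent TGF-beta in epithelia, was at least 62-fold lower, and the target Id4 at least 16.3-fold lower. None of these 3 genes was well above background on any CT26 array. Nbl1, another secreted BMP antagonist, fell by 5.84 on the log2 scale (SE 0.694). Inhba rose by 7.96 (SE 0.838) and was well above background on 1 of 3 colon arrays. The adjusted p of these 5 genes was 2.64e-06 to 0.000352. Of the 3 BMP ligands tested, Bmp3, Bmp8a and Bmp8b, all were called lower (median -3.71). Bmp8b was not well above background on any CT26 array either, so that its size and this median are not measured. The other ligands of the list, Bmp5 and Bmp6, did not pass the filter and were not tested, and Bmp6 had means of -4.83 in CT26 and -4.86 in colon. With colon replicate 3 left out, Bmp5 was tested and called and Bmp8b was not called. Of 8 targets, 3 were called higher and 2 lower (median 0.29), and of 9 secreted inhibitors, 3 were called in each direction (median 0.07). These splits hold with all arrays. With colon replicate 3 left out, the secreted inhibitors Chrdl2 and Sostdc1 were tested and called lower as well. Neither was well above background on any CT26 array. Targets called in that fit included Id4, Tgfbi and Msx1.

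For the 6 genes called in at least 1 comparison of 2 groups, the genes most alike over the 14 arrays were found among 23650 others, by the root mean square difference of log2 values centered on their means. The nearest named genes to Bmp4 and Tgfbr2 were Lama4, which encodes a laminin chain of vessel and muscle basement membranes, at 0.399 and Scmh1 at 0.291, and Tgfbr2 was followed by Igsf8 at 0.391. Bmp7 was nearest to Prex1 (0.624) and Car9 (0.673), Bmp2 to Ldoc1l (0.339) and Ifngr1 (0.365), and Id1 to Unc13d (0.293) and Ptprj (0.328). Tgfb1 was near Gm8120 (0.256) and Mif (0.288). These values are small beside the range of each gene over the arrays, which was 9.53 for Bmp7, 8.14 for Bmp4, 4.25 for Bmp2, 3.68 for Id1, 3.12 for Tgfbr2 and 2.79 for Tgfb1. Arrays of 5 groups shape this likeness, which is a description.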

How the data were processed

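Labeled RNA of 14 samples was hybridized to one-color Agilent SurePrint G3 Mouse arrays. The intensity used here is the processed signal in the scanner files deposited by the authors (Feature Extraction 10.7.3.1, build mm9), which is background-subtracted but not normalized across samples. A second deposited table holds log2 values, normalized between arrays by the authors with a method not given in the sources used here. Its 28 flag and detection columns and the 21 columns of the authors' own comparisons (fold changes, p-values and adjusted p-values) were not used.

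Control and outlier spots were left out, signals were log2 transformed and centered on the 75th percentile of the array, and replicate spots were averaged. The probe with the highest mean stood for its gene. Each pair of groups was fitted on its own arrays with the lmFit and eBayes functions of limma 3.58.1 (R 4.3.3), over probes that all arrays of either group showed well above background, with Benjamini-Hochberg adjustment over all of them. A gene below background on all arrays of a group was given a bound. Precision is limited by the number of arrays. The fit was tested on simulated data.

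The 10 genes and the lists were chosen with earlier results of these data known. Named genes were the 10, up to 6 called list genes with the largest fold change in each comparison, and the 3 most alike of each called gene, without transcripts that have no gene symbol. Some genes of the lists entered the counts but are not reported here by name. Other called list genes were named after their values were seen. The alternatives were the authors' table, normexp (offset 50), quantile normalization, other filters, 1 fit of all 5 groups, slide or replicate number as a block, a looser threshold, any probe of a gene, differences within a slide, and fits that left out 1 array.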

Additional observations from a re-analysis of the deposited data

Results flagged for a closer look

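The change in CT26 against colon differed from the change in adenomas against small intestine for 4 of the 10 genes. The difference was tested with limma. All 4 were called lower, where 15.3% of all genes tested were. The log2 difference was -8.15 for Bmp4, -7.73 for Bmp7, -3.45 for Id1 and -2.1 for Bmp2. Among the genes of the wider pathway lists, differences were also called for Chrdl2 (-12.1), Itgb6 (-7.94), Inhbb (-7.85), Bmp3 (-7.48) and Chrdl1 (-7.07). Bmp4 and these 5 genes were not well above background on any CT26 array, so the size of their differences is not measured there. Bmp7 was not well above background on 1 of 3 CT26 arrays. Chrdl2 was also not well above background on any small intestine array, so that its size is not measured there either. With all arrays it entered this test only through adenomas and was not tested between CT26 and colon. Over the other settings and with 1 array left out, its value ran from -13.07 to -5.79. Without colon replicate 3, Bmp2 was not called and Tgfbr2 was (-2.91, adjusted p = 0.000116).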

How the results depend on the processing

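Of the 10 genes, 5 were called between adenomas and small intestine, and 3 with no filter on dim probes, with all 5 groups in 1 fit or with the slide as a block. Between adenomas and adjacent tissue 2 were called, and 0 with no filter, all 5 groups in 1 fit, the slide as a block or the replicate block. Between CT26 and colon 5 were called, and 8 with all 5 groups in 1 fit or at the looser threshold (log2 fold change of 1, adjusted p of 0.05). For the difference of these changes 4 were called, and 7 in the authors' table or at the looser threshold. With 1 array left out, the counts were 3 to 4, 0 to 2, 4 to 6 and 3 to 5, and 0 in the other 2 comparisons. The share of all genes called under each setting is not given beside these counts. A change in a count therefore does not single out these genes.

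For the genes of the wider lists, the count between adenomas and adjacent tissue was 5, and 0 with no filter, 1 with all 5 groups in 1 fit, 2 with the slide as a block, 0 with the replicate block and 12 at the looser threshold. Between adjacent tissue and small intestine it was 0, and 4 with all 5 groups in 1 fit and 5 at the looser threshold. With the filter on all groups compared it fell from 23 to 15 between CT26 and colon and from 20 to 11 for the difference of changes, since fewer genes are tested. With 1 array left out, the counts were 11 to 19 between adenomas and small intestine, 0 to 7 for adenomas against adjacent tissue, 0 for adjacent tissue against small intestine, 0 to 4 between colon and small intestine, 19 to 27 between CT26 and colon and 14 to 22 for the difference of changes. Except for the filter, the cause was not tested. These counts too stand without the share of all genes called under each setting.

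Reversed signs were found for values that were not called. Id3 between adenomas and small intestine was 0.24 in the authors' table and 0.21 with quantile normalization. Grem1 between colon and small intestine was -0.01 with normexp and -0.05 with the slide as a block, and Tgfbr2 between CT26 and colon was -0.27 in the authors' table and -0.25 with quantile normalization. The Grem1 difference of changes was -0.33 and -0.34 in these. With 1 array left out, Smad6 was -0.04 to 0.13 between adenomas and small intestine, and Grem1 was -0.56 to 0.75 between adenomas and adjacent tissue. Between colon and small intestine, Grem1 was -0.51 to 0.4, Bmp7 -0.6 to 0.18 and Smad6 -0.13 to 0.27. Between CT26 and colon, Tgfbr2 was -0.38 to 0.59 and Smad7 -0.26 to 0.79, and the Grem1 difference of changes was -0.06 to 0.85.

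Of the called values of the genes named, 303 kept their call and direction over the other settings and 33 lost the call, and 215 and 43 did so with 1 array left out. The looser threshold and the any-probe setting could not drop a call, so part of the 303 was fixed in advance. Values not tested under a setting were left out of these counts. None of them turned. The scaling moved the median of all genes between adenomas and small intestine from -0.15 to -0.03 in the authors' table and with quantile normalization, and between CT26 and colon from 0.32 to 0.11 with normexp. The replicate numbers do not establish a pairing, since the deviations of arrays with the same number had correlations of -0.125 to 0.291. For adjacent tissue, the sample titles carry other numbers than the replicate labels. Both these correlations and the replicate block used the labels, and a match by title was not tested. With the replicate block, Bmp2 lost its call between adenomas and small intestine (adjusted p = 0.0137), which left 4, and between CT26 and colon Smad6 was called and Tgfb1 was not, which left 5.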
